A study of Mus musculus with 8 samples.

Results

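Axon guidance ligands and receptors were taken from the count table as the genes whose symbols name an ephrin, Eph receptor, semaphorin of classes 3 to 7, plexin, neuropilin, numbered netrin, Unc5 receptor, Slit or Robo, plus Dcc. The rule found 69 of the 54735 genes listed, namely 8 ephrins, 14 Eph receptors, 20 semaphorins, 9 plexins, 2 neuropilins, 4 netrins, 5 genes of the Dcc and Unc5 group, 3 Slits and 4 Robos, or 35 ligands and 34 receptors. The rule reads gene names only. RNA had been sequenced from tissue punches of the ventral tegmental area (VTA), the midbrain site of the dopamine neurons that project to the striatum and cortex, in DBA2/J mice. The 4 social stress (SS) mice had met a threatening adult mouse for 30 min a day between P14 and P21, and the 4 control (CTR) mice had not been handled. All 8 are labelled male and P21, the study's methods place sampling on the day after the last exposure, each mouse gave 1 library, and no allele or transgene distinguished the groups. Library names give group and replicate number, from CTR-1 to CTR-5 (no 4) and from SS-2 to SS-5. The comparison asks whether genes that steer axons differed in the VTA after early social stress.

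Guidance molecules are secreted or membrane-bound cues that growing axons read through receptors on the growth cone, turning toward attractants and away from repellents. Ephrins signal through Eph receptors, semaphorins through plexins with neuropilins as co-receptors for most class 3 members, netrin through Dcc and the Unc5 receptors, and Slits through Robos. In the midbrain these systems shape the path and targets of dopamine axons, and many members stay in use at mature synapses, in glia and in blood vessels.

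The 250 bases before the start site were read from RefSeq (GRCm38.p6) to show the start regions of 4 members whose values are described below, Plxna3 and Nrp2 with a higher and Robo2 and Epha4 with a lower SS mean. Nrp2 is printed only up to the start of its longest gene model, which leaves 218 bases. The stretches lie at chrX:74328816-74329065 (plus strand), chr1:62703067-62703284 (plus strand), chr16:74411826-74412075 (minus strand, 1 of 3 RefSeq starts) and chr1:77515089-77515338 (minus strand), are written 5′ to 3′ on the gene's strand, and come from the C57BL/6J reference and not from the DBA2/J mice. Capitals mark matches, on either strand, to the GC box GGGCGG or the glucocorticoid receptor half-site AGAACA.
Plxna3: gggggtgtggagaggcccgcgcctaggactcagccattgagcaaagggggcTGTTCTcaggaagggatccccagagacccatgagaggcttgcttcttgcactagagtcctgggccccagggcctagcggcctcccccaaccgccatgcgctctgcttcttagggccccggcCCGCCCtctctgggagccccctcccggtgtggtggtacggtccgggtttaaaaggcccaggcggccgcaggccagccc
Nrp2: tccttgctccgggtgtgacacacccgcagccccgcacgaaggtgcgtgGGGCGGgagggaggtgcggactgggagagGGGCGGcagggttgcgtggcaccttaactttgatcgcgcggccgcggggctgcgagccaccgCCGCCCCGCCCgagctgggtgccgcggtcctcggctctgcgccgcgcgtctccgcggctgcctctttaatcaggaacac
Robo2: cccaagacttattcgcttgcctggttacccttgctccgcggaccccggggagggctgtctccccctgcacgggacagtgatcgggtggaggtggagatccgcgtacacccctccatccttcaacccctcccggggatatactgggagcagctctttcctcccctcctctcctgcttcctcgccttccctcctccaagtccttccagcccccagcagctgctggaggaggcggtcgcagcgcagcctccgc
Epha4: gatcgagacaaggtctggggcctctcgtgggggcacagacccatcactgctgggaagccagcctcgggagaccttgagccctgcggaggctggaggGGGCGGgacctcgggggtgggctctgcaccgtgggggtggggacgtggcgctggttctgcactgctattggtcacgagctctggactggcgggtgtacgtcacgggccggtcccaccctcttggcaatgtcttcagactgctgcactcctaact
Nrp2 held 4 GC box matches, a pair of which overlap, while Plxna3 and Epha4 held 1 each and Robo2 held 0. Plxna3 also held 1 half-site. A cAMP response element (TGACGTCA) or an NR4A site (AAAGGTCA) was found in 0 of these 4 stretches. RefSeq promoters were matched to 59 of the 69 members. With 1 start per member, 72.9% of these 59 windows held a GC box, against 32.7% of all 32851 windows of 250 bases, and their median GC content was 64.8% against 52.4%. The half-site was in 6.8% of the member windows and 16.1% of all windows, the cAMP response element in 1.7% and 1.5%, and the NR4A site in 0 member windows and 1.3% of all. The member start was the one nearest the start of the gene model, while all windows held every start of 27025 genes, unfiltered by level. For Robo1, Sema3a and Sema4d the window lay 354843, 271370 and 37064 bases from the gene model start. These are letter matches in one window and do not show binding.

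Library totals ran from 20036086 to 47319997 counts. Values are CPM (counts per M, after TMM scaling of library sizes). The members together took 0.280% to 0.387% of all counts, with 0.280% in CTR-1, 0.320% in CTR-2 and 0.360% to 0.376% in the SS libraries. Among 1989 genes with a mean of 1 to 3 CPM, 434 were at 0 in CTR-1 and 354 in CTR-2, against 1 to 94 in the other 6 libraries. CTR-5 and SS-5 carried 14997 and 6551 Xist counts with 3 and 0 Y-linked counts, which goes against their label as male. The label VTA was checked against 7 dopamine neuron markers, whose summed level was 811 to 1883 CPM in CTR and 163 to 220 CPM in SS. All 7 were lower in SS and 6 were called by edgeR's test at an adjusted p under 0.05. Markers of cortical and hippocampal excitatory neurons summed to 518 CPM in CTR-5 and 272 CPM in CTR-2, against 29.7 to 98.9 CPM in the other 6 libraries. In bulk tissue, fewer cells of a type and less RNA per cell cannot be told apart. The study counted tyrosine hydroxylase-positive neurons in VTA sections of other mice and found no group difference in their number. It also reported weaker staining for tyrosine hydroxylase and the dopamine transporter, and smaller transporter currents, in the VTA of male SS mice. Those measurements do not describe the tissue in the punches sequenced here.

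No member passed the test of SS against CTR. Of the 69, 68 passed the filter on low counts, and 0 of the 68 had an adjusted p under 0.05 (edgeR's quasi-likelihood test, Benjamini-Hochberg over 16538 genes), where the share called over all genes was 0.0847%. DESeq2 and limma voom also called 0. The smallest adjusted p was 0.697 with edgeR and 0.177 with DESeq2, both for Sema4g. At an unadjusted p under 0.05 there were 5 members with a higher SS mean (Sema4g, Slit1, Nrp2, Sema4a and Plxna3, against 2.85% of all genes) and 3 with a lower one (Robo2, Ntn1 and Epha4, against 3.70% of all genes). Both directions together came to 11.8% of the members tested, against 6.55% of all genes. The CTR and SS libraries did not overlap for 2 of 68 members, Sema4g and Plxna3, or 2.94% against 4.67% of all genes, so the share of fully separated members was not above the background.

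The members leaned to a higher SS mean. The log2 fold change (SS relative to CTR) was above 0 for 48 of 68 members (70.6%) and for 50.6% of all genes, and its median was 0.10 over the members and 0.00 over all genes. It ranged from -0.80 for Epha4 to 0.63 for Sema3b. The lean depended on the CTR libraries used. The share above 0 was 60.9% without CTR-1 (median 0.06), 66.2% without CTR-2 (median 0.14) and 75.0% without CTR-5 (median 0.17). Without both CTR-1 and CTR-2, a choice made after seeing the data, 32 of 69 members were above 0 (46.4%) and the median was -0.02. CTR-1 was the lowest of the 8 libraries for 29 of 68 members (42.6%, against 27.9% of all genes) and CTR-2 for 16 (23.5%, against 20.1%).

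**Figure D1:**
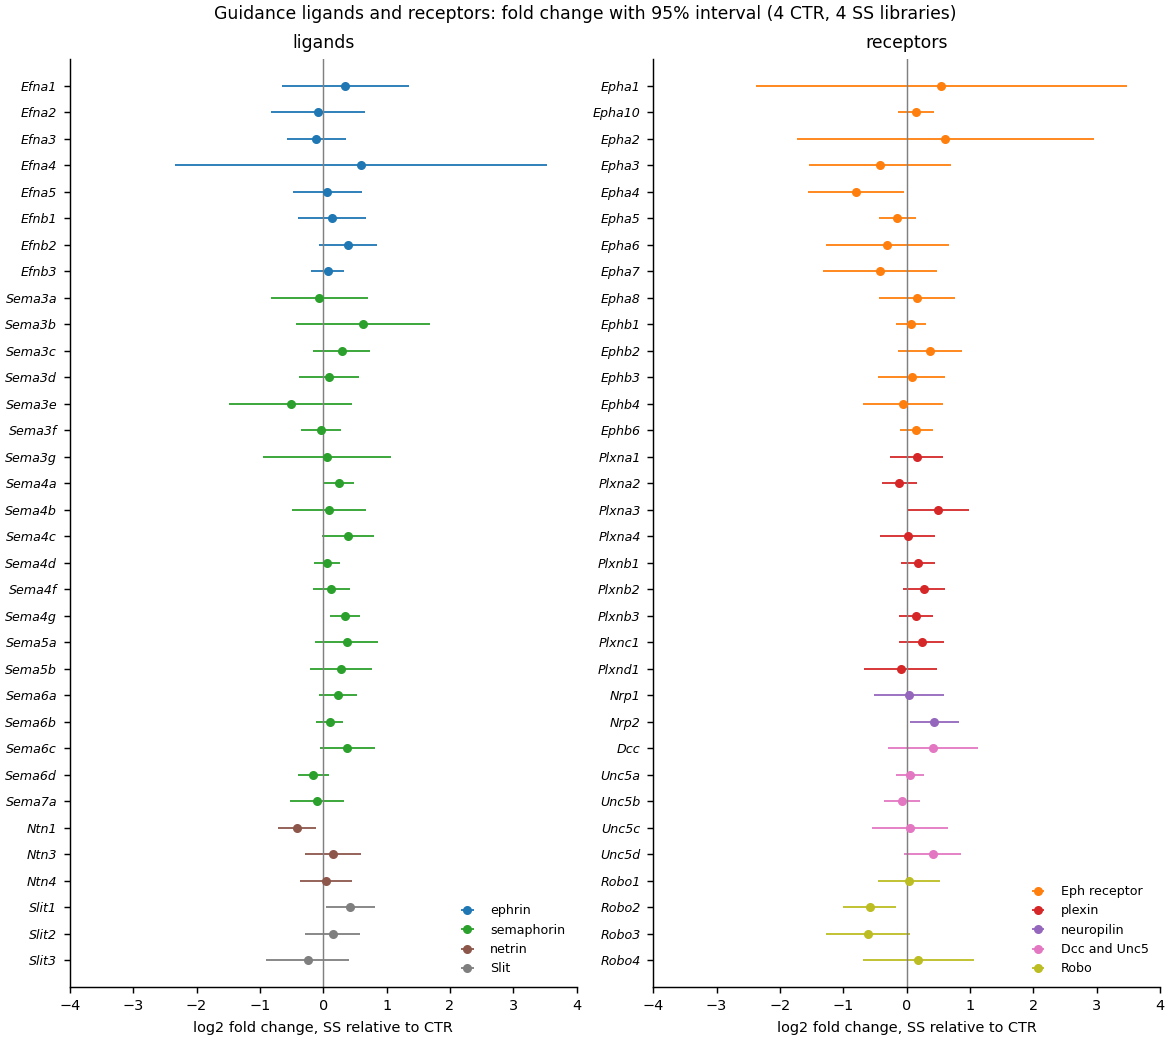
Log2 fold change of SS relative to CTR for the 34 ligands (left) and 34 receptors (right) that passed the filter, coloured by family, with bars for the 95% interval of edgeR's fit. Most points lie slightly right of 0, nearly all bars cross 0, and the widest bars belong to Efna4, Epha1 and Epha2, each with a mean near or under 1 CPM.

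The precision differed by member. The 95% interval of the fold change lay within 2-fold either way for 53 of 68 members and within 1.5-fold for 26. For the other 15 members a change of 2-fold in at least 1 direction was inside the interval, which held for 6 of the 14 Eph receptors and for 3 of the 4 Robos. Spread was larger among CTR than among SS libraries for 60 of 68 members (88.2%, against 82.9% of all genes), with a median coefficient of variation of 30.1% in CTR and 11.7% in SS.

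Levels between members are compared per kb of exon, from gene models of GENCODE M21 (GRCm38). The highest was Efnb3, an ephrin-B ligand that halts corticospinal axons at the midline, at 58.9 CPM per kb in CTR and 61.9 CPM per kb in SS. Next came Sema6b with 34.0 and 36.4 CPM per kb, Sema4d with a mean of 26.2 CPM per kb over all libraries and Sema7a with 24.2 and 22.7 CPM per kb. Among receptors the highest were Ephb1 with 16.0 and 16.8 CPM per kb, Unc5a with 15.9 and 16.5, Unc5b with a mean of 14.6 and Plxnb1 with 13.7 and 15.5. In CTR the ranges of mean ± SD of these 4 receptors overlapped. The netrin receptor Dcc was 62nd of the 68 at 0.872 CPM per kb in CTR and 1.16 CPM per kb in SS. Epha1, Epha2 and Efna4 were lowest, at means of 0.159, 0.191 and 0.265 CPM per kb.

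**Figure D2:**
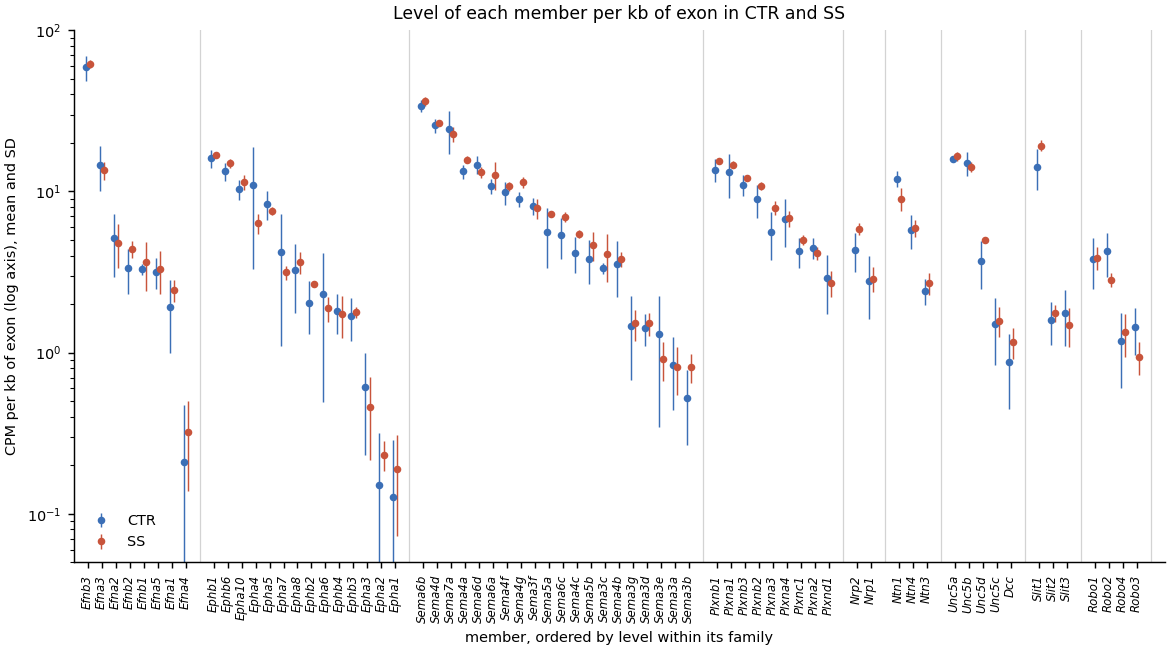
Mean CPM per kb of exon with SD in CTR and SS (4 libraries each, log axis) for the 68 members, ordered within families. Levels span from Efnb3 near 60.4 to Epha1 near 0.159 CPM per kb, the 2 groups lie close together for nearly every member, and the lower bars of Efna4, Epha1 and Epha2 in CTR run off the axis.

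Among the ephrins, 6 of 8 had a higher SS mean and none had an unadjusted p under 0.05. Efnb3 was at 174, 171, 237 and 167 CPM in CTR and at 196, 188, 193 and 211 CPM in SS, here and below in the order of the replicate numbers. CTR-3 was the highest of all 8 and the other 3 CTR libraries lay below every SS library. Its log2 fold change was 0.07 ± 0.12 (SE). Efnb2, a ligand for EphB receptors and a marker of arteries, had CTR and SS means of 23.0 ± 7.04 and 30.1 ± 3.47 CPM (SD, n = 4 each) and a log2 fold change of 0.39 and an interval of -0.07 to 0.85. It came to 0.23 without CTR-1. Efna5, a ligand that repels EphA-bearing axons, was at 12.7 ± 2.78 and 13.3 ± 3.93 CPM.

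Of the families, the Eph receptors had the largest median coefficient of variation in CTR, 41.0%, against 12.6% in SS. In CTR it ranged from 12.5% for Ephb1 to 123.5% for Epha1, whose CTR mean was 0.502 CPM. Epha4, a receptor for both ephrin classes that works in midline circuits (chr1:77367185-77515088, minus strand), was at 53.0, 69.3, 51.8 and 181 CPM in CTR and at 52.7, 55.8, 55.7 and 40.4 CPM in SS. CTR-5 stood at 3.42 times the median of the other 7 libraries. CTR-1 and CTR-3 lay within the SS range, and CTR-2 lay above it. The log2 fold change of -0.80 ± 0.35 (SE; edgeR's p = 0.0406, adjusted p = 0.755) came to -0.18 without CTR-5, and the exact permutation test over all 70 assignments gave p = 0.257.

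Other members were high in the same library. CTR-5 was over 1.5 times the median of the other 7 for 13 of 68 members (19.1%, against 10.2% of all genes). Besides Epha4 these were Epha1, Epha2, Epha3, Epha6, Epha7, Sema3e, Slit3, Nrp1, Unc5c, Dcc, Robo2 and Robo3. For Epha1, Dcc and Robo3 another library was higher than CTR-5. Epha1 and Epha2 were near the floor, with medians of 0.394 and 0.847 CPM in the other 7. Epha7, a receptor that restricts cortical projections, was at 12.3, 28.4, 41.5 and 83.6 CPM in CTR and at 26.5 to 33.7 CPM in SS. Sema3e, a ligand of plexin D1, reached 24.2 CPM in CTR-5, against 4.70 to 13.2 CPM elsewhere. CTR-5 is also the library with the highest sum of excitatory forebrain markers, 518 CPM, and with Slc17a7 at 403 CPM, against 13.9 to 243 CPM in the rest. The part of that tissue difference in these values was not tested.

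Of the other Eph receptors, Epha5, which guides topographic projections, was at 115 to 181 CPM in CTR and 119.5 to 136 CPM in SS; its log2 fold change of -0.15 became -0.00 without CTR-5. Ephb1 had CTR and SS means of 112 ± 14.04 and 117 ± 5.21 CPM, and its interval of -0.17 to 0.30 lay within 1.5-fold. Ephb2, an EphB receptor also known at excitatory synapses, was at 20.5, 15.3, 32.2 and 35.2 CPM in CTR and at 33.7, 33.2, 33.8 and 33.0 CPM in SS. CTR-1 and CTR-2 lay below all other libraries, and without both the log2 fold change went from 0.37 to -0.01. Epha1 shares 236 exon bases with Zyx on the opposite strand, which had 15964 counts against 174 for Epha1. Whether reads were counted by strand is not given in the sources used here, so Epha1 counts are uncertain.

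**Figure D3:**
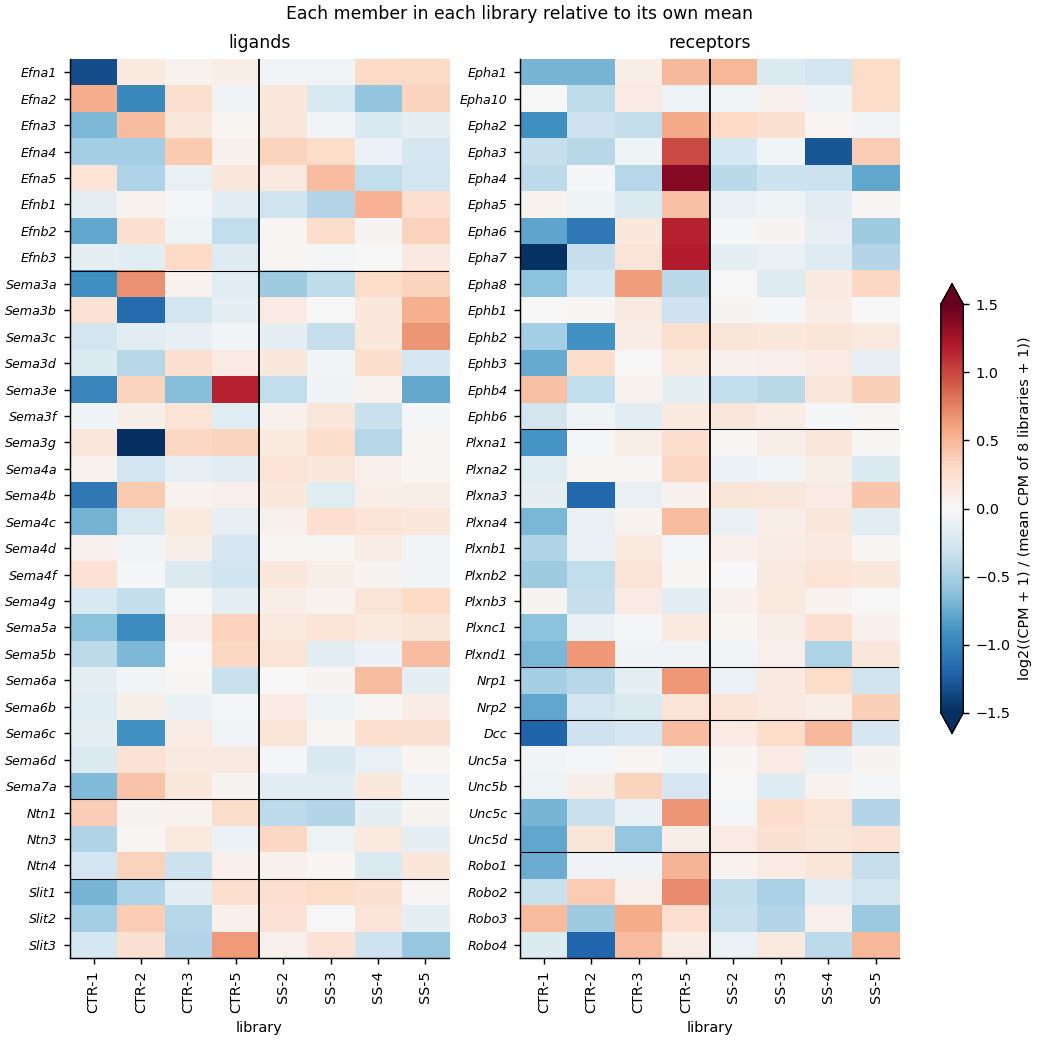
Each of the 68 members in each library, coloured by log2 of (CPM + 1) over (its mean CPM in the 8 libraries + 1), with ligands on the left and receptors on the right and black lines between families. The CTR-1 column is blue (low) in many rows, as the lowest library for 29 members, and the CTR-5 column is dark red (high) for Epha3, Epha4, Epha6, Epha7 and Sema3e.

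Among the semaphorins, 15 of 20 had a higher SS mean, with a median log2 fold change of 0.11. Sema4g, a transmembrane class 4 semaphorin (chr19:44989101-45003397, plus strand), was at 74.9, 68.5, 87.5 and 79.7 CPM in CTR and at 93.5, 91.8, 101 and 109 CPM in SS. Every SS library lay above every CTR library. The log2 fold change was 0.35 ± 0.11 (SE; edgeR's p = 0.00858, adjusted p = 0.697), and the exact two-sided permutation test gave p = 0.0286, the smallest that 4 against 4 libraries allow. It stayed between 0.29 and 0.40 in the 8 fits that each left out 1 library.

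Sema4a, a class 4 semaphorin studied mainly in immune cells and retina (chr3:88435959-88461182, minus strand), was at 81.7, 64.1, 72.3 and 69.9 CPM in CTR and at 90.6, 87.7, 82.9 and 80.1 CPM in SS. The groups overlapped by 1 library each, since CTR-1 exceeded SS-5. Its log2 fold change was 0.25 ± 0.11 (SE; edgeR's p = 0.0416, adjusted p = 0.755), with an exact permutation p of 0.0571. Sema6b, a ligand of class A plexins, had means of 135 ± 10.8 and 145 ± 9.20 CPM. Sema7a, a membrane-anchored ligand of plexin C1 with a known part in dopamine axon targeting, was at 79.9 ± 23.4 and 74.9 ± 8.37 CPM (SD, n = 4 each).

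The secreted class 3 semaphorins that act through neuropilins were low per kb apart from Sema3f, a ligand of Nrp2, with means of 42.0 ± 5.04 and 40.9 ± 6.002 CPM. Its interval of -0.35 to 0.28 lay within 1.5-fold. Sema3a, the classical growth cone collapsing factor, was at 11.7 ± 5.58 and 11.3 ± 3.70 CPM, and its sign depended on single libraries. Sema3c, known as an attractant for dopamine axons, was at 21.6 to 25.8 CPM in CTR and 20.7 to 42.4 CPM in SS. SS-5 was its highest library, and without SS-5 the log2 fold change went from 0.29 to 0.06.

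All 9 plexins had a larger coefficient of variation in CTR than in SS. So did all neuropilins, Slits and Robos tested, and 82.9% of all genes. Of the 9 plexins, 7 had a higher SS mean, against 50.6% of all genes. Plxna3, a class A plexin that transmits class 3 semaphorin signals (chrX:74329066-74344689, plus strand), was at 48.5, 23.1, 49.2 and 55.7 CPM in CTR and at 60.4, 60.2, 58.0 and 71.3 CPM in SS. The groups did not overlap, with CTR-2 far below the rest and CTR-5 only just under SS-4. The log2 fold change was 0.50 ± 0.22 (SE; edgeR's p = 0.0443, adjusted p = 0.755), it was 0.29 without CTR-2, and the exact permutation p was 0.0286. Plxnb3, 556.6 kb before it on the X chromosome, stood at 0.15 on that scale. Plxnb1, the receptor of Sema4d, was at 131 ± 22.1 and 149 ± 4.79 CPM. Plxnc1, the receptor of Sema7a, was at 35.5 ± 7.63 and 42.0 ± 2.99 CPM, and its log2 fold change of 0.24 came to 0.05 without CTR-1 and CTR-2.

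The neuropilins differed in value. Nrp2, the co-receptor of Sema3f and Sema3c (chr1:62703285-62818695, plus strand), was at 34.8, 49.4, 51.7 and 68.9 CPM in CTR and at 68.9, 66.3, 64.8 and 77.3 CPM in SS. CTR-5 lay within the SS range and the other 3 CTR libraries below it. Nrp2 had a log2 fold change of 0.43 ± 0.18 (SE; edgeR's p = 0.0303, adjusted p = 0.755), with an exact permutation p of 0.0857. It was 0.61 without CTR-5, 0.29 without CTR-1 and 0.20 without CTR-1 and CTR-2. Nrp1, the co-receptor of Sema3a, was at 27.3 ± 11.5 and 28.1 ± 4.95 CPM, with an interval of -0.51 to 0.59. The difference between the 2 neuropilins was not tested.

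**Figure D4:**
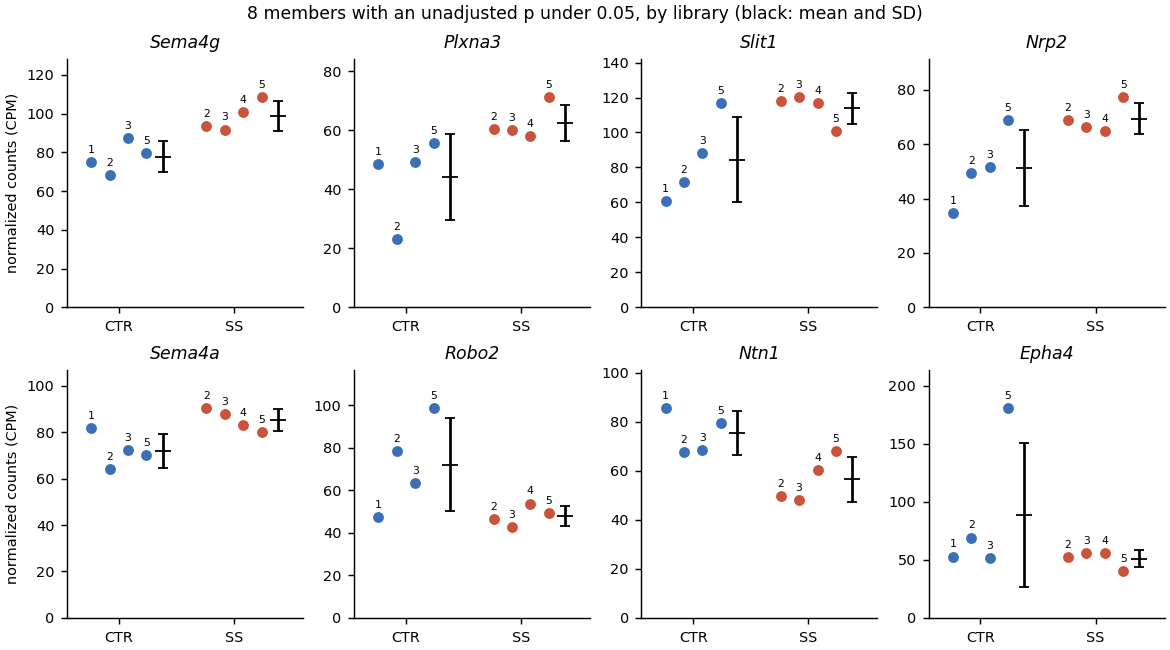
CPM in each library (numbered points; CTR blue, SS red) of the 8 members with an unadjusted p under 0.05, with the group mean and SD in black; each axis starts at 0. The groups separate fully only for Sema4g and Plxna3, and the Epha4 mean in CTR is set by CTR-5 at 181 CPM.

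Of the netrins, Ntn1 had the second smallest unadjusted p among members with a lower SS mean. Ntn1, the secreted cue that attracts axons through Dcc and repels them through Unc5 receptors (chr11:68209364-68400823, minus strand), was at 85.8, 67.6, 68.6 and 79.6 CPM in CTR and at 49.9, 48.2, 60.2 and 67.9 CPM in SS. SS-5 just exceeded CTR-2, and the other 3 SS libraries lay below all of CTR. Ntn1 had a log2 fold change of -0.42 ± 0.14 (SE; edgeR's p = 0.0116, adjusted p = 0.729), between -0.51 and -0.34 in the fits without 1 library, and the exact permutation p was 0.0571. Ntn4 was at a log2 fold change of 0.04 and Ntn3 of 0.16. Ntn3 shares 89 exon bases with Tbc1d24 on the same strand. Ntn5 failed the filter, with 0, 30, 0 and 42 counts in CTR and 19, 15, 0 and 0 in SS. A count of 0 allows up to 3 counts per library, and this covers counting error only.

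Of the 5 netrin receptors, 4 had a higher SS mean with none at an unadjusted p under 0.05. Dcc, the receptor for attraction, was at 5.27, 10.6, 11.1 and 18.9 CPM in CTR and at 14.7, 16.4, 19.2 and 11.1 CPM in SS. The groups overlapped, and the log2 fold change of 0.41 had an interval of -0.30 to 1.12. It was 0.77 without CTR-5 and 0.02 without CTR-1 and CTR-2. Unc5a had means of 66.3 ± 1.87 and 68.8 ± 4.40 CPM and an interval of -0.16 to 0.27. Unc5d was at 22.9, 45.5, 26.4 and 42.6 CPM in CTR and at 43.6, 47.2, 45.5 and 46.7 CPM in SS. CTR-1 and CTR-3 were low, and the log2 fold change was 0.41 with an interval of -0.04 to 0.86, and 0.26 without CTR-1.

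The Slits and Robos had their lowest unadjusted p in opposite directions. Slit1, a repellent ligand of Robos (chr19:41600257-41743665, minus strand), was at 60.9, 71.5, 88.5 and 117 CPM in CTR and at 118, 120, 117 and 101 CPM in SS. CTR-5 lay within the SS range and the other 3 CTR libraries below it. Slit1 had a log2 fold change of 0.43 ± 0.17 (SE; edgeR's p = 0.0302, adjusted p = 0.755), with an exact permutation p of 0.0857. It was 0.63 without CTR-5 and 0.15 without CTR-1 and CTR-2. Slit2, known for keeping dopamine axons off the midline, was at 40.4 ± 12.2 and 44.8 ± 5.29 CPM.

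Robo2, a Slit receptor (chr16:73891839-74411825, minus strand), was at 47.4, 78.3, 63.7 and 98.9 CPM in CTR and at 46.6, 42.7, 53.8 and 49.4 CPM in SS. CTR-1 lay among the SS libraries and the other 3 CTR libraries above all of them. Robo2 had a log2 fold change of -0.59 ± 0.19 (SE; edgeR's p = 0.0107, adjusted p = 0.713), with an exact permutation p of 0.0857. It was -0.39 without CTR-5 and -0.76 without CTR-1 and CTR-2, so the sign held in each case. Each of these fits kept CTR-5 or CTR-2, the highest libraries for Robo2. They also had the highest sums of excitatory forebrain markers, 518 CPM in CTR-5 and 272 CPM in CTR-2. No fit left out CTR-5 and CTR-2 together, so whether the Robo2 difference holds without them was not tested. Robo1, which lies 845.7 kb away on chromosome 16, was at 62.6 ± 21.9 and 64.2 ± 10.1 CPM with a log2 fold change of 0.03. Robo3, a divergent Robo of commissural neurons, was at 9.83 ± 3.17 and 6.45 ± 1.51 CPM with a log2 fold change of -0.61 and an interval of -1.27 to 0.05. Robo4, the endothelial member that ends 0.6 kb from Robo3 on chromosome 9, stood at 0.18 on the same scale, and from -0.08 to 0.47 in the fits without 1 library.

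The 18 members with a known part in dopamine axon wiring gave 12 higher and 6 lower SS means, with a median log2 fold change of 0.06. EdgeR called 0 of them, and the groups separated fully for 0, against 4.67% of all genes. At an unadjusted p under 0.05 there were 4 (22.2%, against 6.55% of all genes), with Nrp2 and Slit1 higher and Robo2 and Ntn1 lower. The list was chosen with earlier results of these data known, so this share does not test it. The dopamine neuron markers in the same libraries had a median log2 fold change of -3.99. How far that difference enters the members' values was not tested.

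Of 49 genes that act beside or downstream of these receptors, 0 were called by edgeR, DESeq2 or voom and 3 had an unadjusted p under 0.05 (Chn1, Dscam and Mical3 with edgeR), or 6.12% against 6.55% of all genes, a share at the background. The SS mean was higher for 28 and lower for 21, and the median log2 fold change was 0.05. Chn1, the Rac GTPase-activating protein alpha-chimaerin downstream of Epha4, was at 333, 313, 302 and 495 CPM in CTR and at 275, 282, 253 and 289 CPM in SS. The groups did not overlap and CTR-5 was again the highest (log2 fold change -0.39, edgeR's adjusted p = 0.755). Among 7 Eph receptor effectors 6 had a lower SS mean, with only Chn1 at an unadjusted p under 0.05. Among 14 semaphorin and plexin effectors 10 had a higher and 4 a lower SS mean. Of all genes, 50.6% had a higher SS mean. Mical3, of a family of plexin effectors that oxidise actin, was at 110 ± 10.2 and 128 ± 5.87 CPM without overlap, and Dpysl5, a collapsin response mediator, at 88.2 ± 2.42 and 101 ± 9.38 CPM without overlap. Dscam, which can act as a netrin receptor, was at 101 ± 10.8 and 120 ± 8.85 CPM. Crmp1, another collapsin response mediator, was at 153 ± 10.8 and 135 ± 5.41 CPM without overlap, and the adaptor Nck2 at 17.9 ± 2.58 and 14.7 ± 2.85 CPM (SD, n = 4 each). The 4 effectors without overlap were 8.16% of the list, against 4.67% of all genes.

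With CTR-5 and SS-5 left out, the remaining 6 libraries are those whose sex transcripts match the label. In them 0 members were called. The SS mean was higher for 50 of 68 members (73.5%, against 51.5% of all genes). The median log2 fold change was 0.23 over the members and 0.01 over all genes. CTR kept only CTR-1, CTR-2 and CTR-3. CTR-1 and CTR-2 were most often the lowest library, for 29 and 16 members. Leaving out CTR-1 and CTR-2 instead gave a member median of -0.02. How far CTR-1 and CTR-2 set the lean in these 6 libraries was not tested. In the 6 libraries the log2 fold change was 0.31 for Sema4g, 0.57 for Plxna3, 0.68 for Slit1, 0.56 for Nrp2 and 0.26 for Sema4a. It was -0.41 for Robo2, -0.49 for Ntn1 and -0.09 for Epha4. Sign was kept for these 8, and only Epha4 shrank to near 0. The 8 were picked by their p in a fit that held the same 6 libraries, so this is not a separate test of them. Over the 8 fits that each left out 1 library, 40 of 68 members kept their sign. Of the 27 named members, 22 moved by more than 1.5 times in at least 1 of these fits. The other 5 were Sema4a, Sema4g, Ntn1, Slit1 and Robo2.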

How the data were processed

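RNA-seq libraries of 4 CTR and 4 SS mice (1 per mouse, groups from the labels) were analysed. Per the study's methods, the authors used Cutadapt for trimming and STAR for alignment to mm10, ran htseq-count with Ensembl genes and deposited the raw counts. The text gives an interval as log2 values. Counts were analysed in R 4.3.3 with edgeR 4.0.16: filterByExpr (minimum count 10, minimum total 15), TMM, glmQLFit and glmQLFTest with a group term and no covariate, and Benjamini-Hochberg adjustment over 16538 genes at 0.05. SE is the fold change over the root of F. Exact two-sided permutation tests used log2 CPM (prior count 2). Alternatives were DESeq2 1.42.0, limma 3.58.1 voom, other scalings, filters and sample sets, and the replicate block. Without litter records, p-values measure only the spread between these libraries. Scripts were tested on simulated data. Named are, per family, the member with the smallest p, the highest level or an unadjusted p under 0.05, and those with known roles in dopamine axon wiring, plus up to 3 effectors per direction. Members and lists were chosen with earlier results of these data known. Other genes named (Epha1, Epha2, Epha3, Epha6, Epha7, Sema3b, Sema3e, Sema4d, Slit3, Plxnb3, Unc5b, Unc5c, Ntn3, Ntn4, Robo3, Robo4 and Efna4) were chosen after their values were seen.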

Additional observations from a re-analysis of the deposited data

Results flagged for a closer look

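Over the 27 named members and 6 named effectors, 66 groups of 4 libraries were examined on log2 CPM for a single library far from the rest. Of these, 3 exceeded Dixon's 95% limit, where chance gives about 1 in 20, or 3.3. The gap ratios are on the log2 scale and differ from ratios of the CPM printed here. Efnb3 in CTR had CTR-3 as its highest library at 237 CPM, with a gap ratio of 0.884. Plxna3 in CTR had CTR-2 as its lowest at 23.1 CPM, with a gap ratio of 0.842. Slit1 in SS had SS-5 as its lowest at 101 CPM, with a gap ratio of 0.83.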

How the results depend on the processing

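No member and no effector was called under any of the 19 alternatives, which included DESeq2, voom, other scalings and filters, and each library left out in turn. All genes called numbered 14, and 6 to 81 under the alternatives (81 with DESeq2, 22 without a filter, 22 at a mean count of at least 50, 27 with the bias-adjusted test). Of 627 alternative values for 33 results on named genes, 599 kept their sign and side and 28 changed sign. Members without overlap numbered 2, 15 with both libraries numbered 5 left out (22.1%, against 20.1% of all genes), 14 without CTR-1 and CTR-2 (20.3% against 14.7%), and 3 to 10 without 1 library (3 without SS-2, 4.41% against 7.69% of all genes, and 10 without CTR-5, 14.7% against 15%). Members at an unadjusted p under 0.05 numbered 8, and 3 to 11 without 1 library (3 without SS-2, 4.41% against 4.47% of all genes, and 11 without CTR-5, 16.2% against 13.4%). They numbered 12 without CTR-1 and CTR-2 (17.4% against 6.34% of all genes). Leaving out CTR-1 and CTR-2 and the bias-adjusted test were chosen after seeing the data.

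Replicate numbers did not pair the libraries, with correlations of -0.01, -0.01 and 0.06 for numbers 2, 3 and 5. With the replicate block 9 genes and 0 members were called, and Sema3f came to 0.0324, Nrp1 to -0.114 and Robo1 to -0.193 (log2 fold change). Without CTR-1 and CTR-2, Efna5 came to -0.00279, Efnb3 to -0.0349, Ephb2 to -0.0105, Sema3a to 0.0196, Nrp1 to -0.301 and Robo1 to -0.244. Without both libraries numbered 5, Efnb3 came to -0.0137 and Ephb1 to -0.00675. Nrp1 was -0.0238 with the bias-adjusted test. In the fits without 1 library the ranges were -0.131 to 0.185 for Efna5, -0.0145 to 0.121 for Ephb1, -0.288 to 0.278 for Sema3a, -0.106 to 0.0577 for Sema3f, -0.271 to 0.0610 for Sema7a, -0.0910 to 0.381 for Nrp1 and -0.148 to 0.269 for Robo1. The cause of these changes was not tested. Efna4, Epha1, Epha2 and Ntn5 were at 0 counts in at least 1 library.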
